A study of Mus musculus with 6 samples.

Results

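The 37 genes described here are genes of macrophages and related white blood cells, read in cultures of mouse colonic fibroblasts. They were taken by gene symbol, as genes known for macrophages, with no threshold on a value measured in these libraries. Earlier results of these data were known when they were chosen. All 37 symbols were found among the 38896 genes of the table, and all 37 passed the filter on low counts that left 19869 genes for testing. The fewest estimated counts of any of them in any library was 17. The cultures came from 3 mice, numbered 1716, 1717 and 1718, and each mouse gave 1 DSS library and 1 control library. Mice were aged 6 weeks, the fibroblasts were taken from the distal part of the colon, and they went through 2 passages before treatment. The series' design text describes 24 h in control or inflammatory conditioned medium, while the labels write DSS and control in their genotype field. DSS is read here as the inflammatory medium, a match that neither source states. The abbreviation is not spelled out. It commonly stands for dextran sulfate sodium, a chemical that injures the colon lining of mice. Strain, sex, any engineered allele and the way in which either medium was prepared are not stated in the labels, and no sorting step for fibroblasts is named there.

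Macrophages are phagocytes that live in nearly every tissue, and the colon holds one of the largest populations of the body, in close contact with fibroblasts. Fibroblasts make colony stimulating factor 1 (Csf1), the growth factor on which macrophages depend for survival, and macrophages receive it through the receptor Csf1r. Macrophages can stick to culture plastic and can be carried along when fibroblasts are grown from tissue. Genes such as Ptprc, Spi1 and Csf1r are not usually expressed by fibroblasts, whereas Apoe and Ctss can be.

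Fibroblast genes were abundant in every library. A list of 10 fibroblast markers summed to 25415 to 29591 CPM (counts scaled to a common library total) in DSS libraries. In control libraries the sum was 43358 to 51984 CPM. Most of it was Col1a1, Col1a2, Col3a1 and Fn1, with means of 8592, 5156, 4149 and 5383 CPM in DSS. Their control means were 17932, 8726, 9834 and 7479 CPM. Of the 10 markers 7 were lower in DSS, against 12.7% of all genes tested. Dcn and Pdgfra were higher, against 12.3% of all genes. The part of fibroblast content in this sum was not tested. The 37 macrophage genes summed to 2747, 3376 and 2327 CPM in DSS libraries of mice 1716, 1717 and 1718, against 3180, 4143 and 3625 CPM in control libraries. Markers of other white blood cells were low but in part detected. The 9 T and NK cell markers in the table summed to 9.92 to 11.8 CPM in DSS and 7.61 to 10.3 CPM in control libraries, with Cd3g and Cd2 at 0 counts in all 6 libraries and Cd3d and Cd8a above 0 in all 6. The list of 8 B cell markers summed to 6.02 to 6.74 CPM in DSS and 3.99 to 4.29 CPM in control libraries, most of it Cd22, which had 5.70, 5.61 and 5.0 CPM in DSS libraries, against 3.59, 3.17 and 3.61 CPM in control libraries. Cd22 was higher in DSS (log2 fold change 0.65 ± 0.14, edgeR adjusted p = 0.0136), though not in DESeq2 (adjusted p = 0.102) or without mouse 1717 (edgeR adjusted p = 0.0583). Panel genes such as Cd163, Aif1 and Cd86 lie at similarly low CPM. Library totals were 17293680 to 17931239 estimated counts in DSS and 17734405 to 19482938 in control. The list of 11 neutrophil and monocyte markers summed to 198 to 238 CPM in DSS and 127 to 155 CPM in control libraries, and most of that sum was Plac8, which had 176, 178 and 218 CPM in DSS libraries, against 107, 112 and 137 CPM in control libraries. Other cells also express Plac8. Of the rest, S100a9 and Elane were at 0 counts in all 6 libraries. Csf3r and Cxcr2 were detected in all 6 and did not pass the test. S100a8 (log2 fold change 1.03 ± 0.34, edgeR adjusted p = 0.0652) and Ccr2 (0.23 ± 0.14, edgeR adjusted p = 0.285) did not pass either. S100a8 did pass without mouse 1716 (edgeR adjusted p = 0.00666), but not without mouse 1717 or 1718 (edgeR adjusted p = 0.321 and 0.188). For Ccr2 every DSS library was above every control library, as for 17.7% of all genes. The part of such cells in the results was not tested. Because each library is a mixture, fewer macrophages in a culture and less RNA of a gene in each macrophage cannot be told apart. Transcripts of fibroblasts and of macrophages are likewise pooled for any gene that both express.

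The macrophage genes changed in both directions in DSS medium. In an edgeR quasi-likelihood fit that pairs libraries by mouse, at an adjusted p under 0.05 over all 19869 genes, 6 of the 37 were higher in DSS libraries, or 16.2%, against 12.3% of all genes tested. Another 14 were lower, or 37.8%, against 12.7% of all genes, and 17 did not pass. Together 20 were called, or 54.1%, against 25% of all genes. The panel's genes had a median level of 35.9 CPM, against 10.8 CPM for all genes tested, and higher counts make a call easier. The part of level in these shares was not tested. The 6 higher genes were Itgax, Clec7a, Cybb, Cd53, Cd68 and Trem2. The 14 lower genes were Mrc1, Fcgr1, C1qa, C1qc, C1qb, Cd86, Aif1, Lyz2, Itgam, Ncf1, Fcgr3, Csf1r, Spi1 and Msr1. Without the mouse as a block 5 were higher and 9 lower, against 7.37% and 5.91% of all genes. Trem2 on the higher side and Mrc1, Fcgr3, Csf1r, Spi1 and Msr1 on the lower side did not pass in that fit. Without mouse 1718 the counts were 6 higher and 9 lower, while calls over all genes fell to 1357 higher and 1422 lower, against 2447 and 2517 with all mice. When the fits were tested on simulated data, the blocked one made more false calls than its threshold states, so its calls may hold more false ones too.

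The changes ranged from -1.37 for Mrc1 to 1.56 for Itgax on the log2 scale, with a median of -0.19 and an interquartile range of -0.59 to 0.11. Over all genes tested the median was 0.01 and the interquartile range -0.19 to 0.22. The standard deviation of the 37 changes was 0.70, while the median standard error of one of them was 0.10, so the genes differed from each other by more than the error of a single gene. The 37 genes were thus not shifted by 1 common amount. In 6 of them every DSS library lay above every control library, against 17.7% of all genes, and these were the 6 called higher. In 11 of them every DSS library lay below every control library, against 16.5% of all genes, and all 11 were called lower. Csf1r, Fcgr3 and Msr1 were called lower although their groups overlapped, because the libraries of each mouse were compared with each other.

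**Figure D1:**
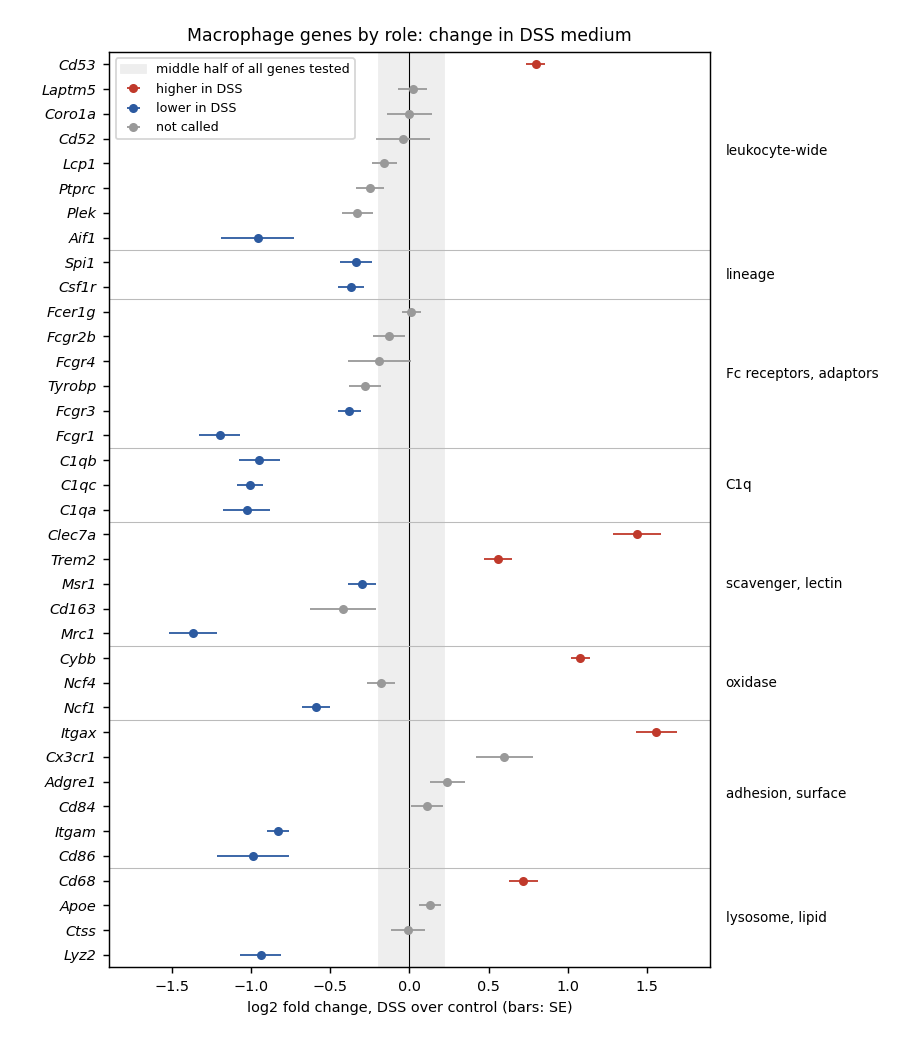
Log2 fold change of 37 macrophage genes, DSS over control, by role (bars are standard errors of the edgeR fit with the mouse as a block, from 3 libraries per group). Red genes were called higher, blue lower and grey not called, and the shaded band is the interquartile range of all 19869 genes tested, from -0.19 to 0.22. Each role with more than 2 genes, other than the C1q chains, holds genes that were called and genes that were not.

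The promoter sequences of some of these genes are shown here because the transcription factor PU.1, which is the product of the panel's own gene Spi1, is known to act at many macrophage promoters. It recognises the letters GAGGAA, or TTCCTC on the opposite strand. RefSeq promoters on GRCm38.p6 were matched for 28 of the 37 genes, with 35 start sites between them. No promoter was matched for Adgre1, Csf1r, Tyrobp, C1qa, Spi1, Ncf4, Msr1, Cd52 and Cd86. The letters were present on either strand within 250 bases before the start in 20 of these 35 promoters, or 57.1%, against 23.3% of 32851 promoters of all genes. By gene, they were found in 4 of 6 genes called higher, 7 of 9 called lower and 6 of 13 not called. They can overlap other motifs of the ETS family. The interferon-gamma activated motif TTCNNNGAA was in 5.71% of the 35 promoters and 7.02% of all. Presence of these letters is a description of the window and does not show that a factor was bound.

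The 100 bases just before the start are given for 4 genes that were lower in DSS and 4 that were higher, 5′ to 3′ on the gene's own strand with the PU.1 letters in capitals. The lower genes are Itgam at chr7:128062540-128062639 (plus strand), Mrc1 at chr2:14229314-14229413 (plus strand), C1qb at chr4:136886201-136886300 (minus strand) and Fcgr1 at chr3:96293970-96294069 (minus strand).
Itgam: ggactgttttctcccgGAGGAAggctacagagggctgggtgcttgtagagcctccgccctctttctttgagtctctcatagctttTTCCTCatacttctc
Mrc1: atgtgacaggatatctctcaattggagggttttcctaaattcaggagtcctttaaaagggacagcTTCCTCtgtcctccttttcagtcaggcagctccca
C1qb: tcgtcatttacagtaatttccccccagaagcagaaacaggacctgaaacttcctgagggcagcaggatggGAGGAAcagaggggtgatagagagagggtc
Fcgr1: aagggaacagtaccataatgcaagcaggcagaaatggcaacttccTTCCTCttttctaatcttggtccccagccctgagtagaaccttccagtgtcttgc
The higher genes are Itgax at chr7:128129450-128129549 (plus strand), Cd53 at chr3:106790150-106790249 (minus strand), Clec7a at chr6:129472786-129472885 (minus strand) and Trem2 at chr17:48346301-48346400 (plus strand).
Itgax: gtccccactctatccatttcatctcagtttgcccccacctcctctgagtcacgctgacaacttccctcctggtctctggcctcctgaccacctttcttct
Cd53: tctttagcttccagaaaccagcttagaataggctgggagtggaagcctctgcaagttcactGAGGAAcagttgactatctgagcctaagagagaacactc
Clec7a: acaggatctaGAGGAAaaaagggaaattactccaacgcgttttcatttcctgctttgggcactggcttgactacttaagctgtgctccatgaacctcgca
Trem2: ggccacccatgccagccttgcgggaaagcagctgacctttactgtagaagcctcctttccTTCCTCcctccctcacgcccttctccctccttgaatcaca
The letters occur in genes of both directions. Itgax has none within 250 bases, and neither do Cybb, Lyz2 and Ncf1, whose sequences are not printed. This says only that these letters are not in that window.

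Spi1 and Csf1r define the lineage, and both were slightly lower in DSS. Spi1 encodes PU.1 itself. In the order of mice 1716, 1717 and 1718, which holds for all values that follow, it had 9.40, 11.3 and 9.21 CPM in DSS libraries, against 11.6, 12.97 and 13.3 CPM in control libraries. In each mouse the DSS library was the lower one, and the groups did not overlap. The difference was small (log2 fold change ± SE of -0.34 ± 0.10, edgeR adjusted p = 0.0466). It did not pass without the block (edgeR adjusted p = 0.108), in DESeq2 (adjusted p = 0.244), or without mouse 1716, 1717 or 1718 (edgeR adjusted p = 0.0756, 0.0576 and 0.239). Csf1r (chr18:61105572-61131139, GRCm38), the receptor for both Csf1 and Il34, had 57.8, 81.4 and 53.6 CPM in DSS libraries, against 79.5, 89.7 and 76.2 CPM in control libraries. DSS mouse 1717 lay above the control libraries of mice 1716 and 1718, but within each mouse DSS was lower. The change was -0.37 ± 0.08 on the log2 scale (edgeR adjusted p = 0.0157), and it did not pass without the block (edgeR adjusted p = 0.196) or without mouse 1718 (edgeR adjusted p = 0.0885).

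Of 8 genes shared by most leukocytes, 1 was higher, 1 was lower and 6 did not pass. Over all genes tested the shares were 12.3% higher and 12.7% lower. Cd53 (chr3:106758861-106790149), a tetraspanin of the leukocyte membrane whose promoter is shown above, had 112, 164 and 134 CPM in DSS libraries, against 68.3, 89.7 and 75.9 CPM in control libraries. All 3 DSS libraries were above all 3 control libraries. The change was 0.80 ± 0.06 on the log2 scale (edgeR adjusted p = 0.000188). Aif1, the calcium-binding cytoskeletal protein known to neuropathologists as Iba1, went the other way with 2.45, 1.81 and 1.25 CPM in DSS libraries, against 3.34, 3.72 and 3.66 CPM in control libraries. No DSS library reached the lowest control library. The change was -0.96 ± 0.23 on the log2 scale (edgeR adjusted p = 0.0212), and it did not pass without mouse 1717 (edgeR adjusted p = 0.0568) or without mouse 1718 (edgeR adjusted p = 0.0985).

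The other 6 genes of this group overlapped between the media. Ptprc, the phosphatase CD45 that marks nearly all white blood cells, had 30.99, 34.8 and 25.7 CPM in DSS libraries, against 32.1, 40.8 and 35.5 CPM in control libraries. Its difference was -0.25 ± 0.09 on the log2 scale (edgeR adjusted p = 0.0778), and it did pass without mouse 1716 (log2 fold change -0.34, edgeR adjusted p = 0.0172). It did not pass without mouse 1717 or 1718 (edgeR adjusted p = 0.159 and 0.363), without the block (edgeR adjusted p = 0.278) or in DESeq2 (adjusted p = 0.252). Ptprc is the usual yardstick for leukocyte content, and its change of -0.25 stands between those of Cd53 and Aif1. Laptm5, a lysosomal membrane protein of blood cells, had 97.4, 121 and 82.8 CPM in DSS libraries, against 84.3, 115 and 97.2 CPM in control libraries. DSS was higher in mice 1716 and 1717 and lower in mouse 1718 (log2 fold change 0.02 ± 0.09, edgeR adjusted p = 0.922). Cd52, a short anchored glycoprotein, had 18.6, 19.7 and 13.6 CPM in DSS libraries, against 13.7, 19.8 and 19.9 CPM in control libraries. DSS was higher in mouse 1716, near equal in mouse 1717 and lower in mouse 1718 (log2 fold change -0.04 ± 0.17, edgeR adjusted p = 0.904).

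The 3 remaining leukocyte genes act on the actin skeleton or beneath the membrane. Coro1a, an actin-binding coronin, had 8.72, 13.4 and 10.8 CPM in DSS libraries, against 7.89, 11.2 and 14.3 CPM in control libraries. It showed no shared direction across mice (log2 fold change 0.00 ± 0.14, edgeR adjusted p = 0.992). Lcp1, the actin bundler L-plastin, had 102, 168 and 135 CPM in DSS libraries, against 118, 161 and 168 CPM in control libraries. Its difference of -0.16 ± 0.08 on the log2 scale (edgeR adjusted p = 0.199) passed without mouse 1717 (log2 fold change -0.27, edgeR adjusted p = 0.0478). It did not pass without mouse 1716 or 1718 (edgeR adjusted p = 0.368 and 0.616) or without the block (edgeR adjusted p = 0.684). Plek, or pleckstrin, a substrate of protein kinase C, had 44.04, 62.5 and 41.03 CPM in DSS libraries, against 47.8, 71.9 and 64.8 CPM in control libraries. DSS was lower in all 3 mice, but the groups overlapped (log2 fold change -0.33 ± 0.10, edgeR adjusted p = 0.0589), and the difference passed without mouse 1716 (log2 fold change -0.42, edgeR adjusted p = 0.0205). It did not pass without mouse 1717 or 1718 (edgeR adjusted p = 0.058 and 0.247) or without the block (edgeR adjusted p = 0.335).

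All 3 chains of complement C1q were lower in DSS, by similar amounts. C1q is the molecule that starts the classical complement pathway, macrophages are its main source in most tissues, and its C1qa, C1qb and C1qc chains assemble in equal numbers. Their genes lie side by side on chromosome 4, with 3600 bases between C1qb and C1qc and 2979 bases between C1qc and C1qa. C1qa (chr4:136895916-136898844) had 35.3, 26.4 and 19.04 CPM in DSS libraries, against 52.2, 58.7 and 51.1 CPM in control libraries. C1qb (chr4:136880126-136886200) had 44.4, 40.02 and 28.1 CPM in DSS libraries, against 66.2, 76.9 and 71.5 CPM in control libraries. C1qc (chr4:136889801-136892936) had 25.5, 27.4 and 18.9 CPM in DSS libraries, against 47.7, 52.2 and 43.7 CPM in control libraries. For each chain all 3 DSS libraries were below all 3 control libraries. C1qa changed by -1.03 ± 0.15 (edgeR adjusted p = 0.00241), C1qb by -0.95 ± 0.13 (edgeR adjusted p = 0.0021) and C1qc by -1.01 ± 0.08 (edgeR adjusted p = 0.000221). The ratio of C1qa to C1qb counts within a library was 0.795, 0.659 and 0.678 in DSS and 0.788, 0.763 and 0.714 in control, so it overlapped between the media. The ratio of C1qc to C1qb was 0.574, 0.684 and 0.672 in DSS and 0.721, 0.679 and 0.611 in control, which also overlapped.

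The serine proteases that C1q activates were measured as well. C1ra had 147, 81.7 and 173 CPM in DSS libraries, against 58.8, 57.8 and 69.8 CPM in control libraries. C1s1 had 333, 194 and 485 CPM in DSS libraries, against 132, 134 and 158 CPM in control libraries. Both were higher in DSS, unlike the C1q chains, with changes of 1.05 ± 0.15 (edgeR adjusted p = 0.0028) and 1.17 ± 0.18 (edgeR adjusted p = 0.00368). Each protease gene has a close copy in the mouse genome, so reads may be shared between copies. Fibroblasts are known to make these proteases, so their levels need not come from macrophages.

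The Fc receptors, which bind the constant part of antibodies, and their signalling adaptors gave 2 genes lower and 4 not passing. Over all genes tested 12.7% were lower. Fcgr1 (chr3:96282909-96293969), the high-affinity receptor for immunoglobulin G, had 9.40, 7.37 and 8.13 CPM in DSS libraries, against 16.5, 20.8 and 19.98 CPM in control libraries. The groups were far apart (log2 fold change -1.20 ± 0.13, edgeR adjusted p = 0.000924). Fcgr3, a low-affinity activating receptor, had 118, 129 and 80.5 CPM in DSS libraries, against 139.6, 169.9 and 114 CPM in control libraries. Its groups overlapped because the control library of mouse 1718 was low, but DSS was lower in every mouse (log2 fold change -0.38 ± 0.07, edgeR adjusted p = 0.00611). The call did not hold without the block (edgeR adjusted p = 0.274).

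Fcgr2b, the inhibitory receptor of this family, had 128, 121 and 65.6 CPM in DSS libraries, against 115, 132 and 87.5 CPM in control libraries. It was higher in DSS in mouse 1716 and lower in mice 1717 and 1718 (log2 fold change -0.13 ± 0.10, edgeR adjusted p = 0.427). Fcgr4, an activating receptor of mouse macrophages and neutrophils, had 25.2, 13.3 and 9.83 CPM in DSS libraries, against 18.3, 21.4 and 13.4 CPM in control libraries. The same split by mouse was seen (log2 fold change -0.19 ± 0.20, edgeR adjusted p = 0.552). Without mouse 1716 the change was -0.27 for Fcgr2b (edgeR adjusted p = 0.0456) and -0.58 for Fcgr4 (edgeR adjusted p = 0.00582). Neither gene passed without mouse 1717 (edgeR adjusted p = 0.563 and 0.856) or without mouse 1718 (edgeR adjusted p = 0.991 and 0.835). Fcgr2b, Fcgr4 and Fcgr3 lie in a row on chromosome 1 and are similar in sequence, so their separate levels are uncertain.

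Neither signalling adaptor passed the test. Fcer1g, the chain through which Fcgr1, Fcgr3 and Fcgr4 signal, had 33.7, 35.5 and 29.3 CPM in DSS libraries, against 32.4, 34.7 and 30.5 CPM in control libraries. Each mouse gave almost the same value in both media (log2 fold change 0.01 ± 0.06, edgeR adjusted p = 0.937). Tyrobp, or DAP12, which carries the signal of Trem2, had 18.5, 30.8 and 20.6 CPM in DSS libraries, against 26.01, 30.7 and 26.6 CPM in control libraries. Its difference was -0.28 ± 0.10 on the log2 scale (edgeR adjusted p = 0.0914), and it passed without mouse 1717 (log2 fold change -0.43, edgeR adjusted p = 0.0141). It did not pass without mouse 1716 or 1718 (edgeR adjusted p = 0.278 and 0.285) or without the block (edgeR adjusted p = 0.43). Fcgr1 was thus lower in DSS while its partner chain Fcer1g gave a log2 fold change of 0.01 ± 0.06 (SE).

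**Figure D2:**
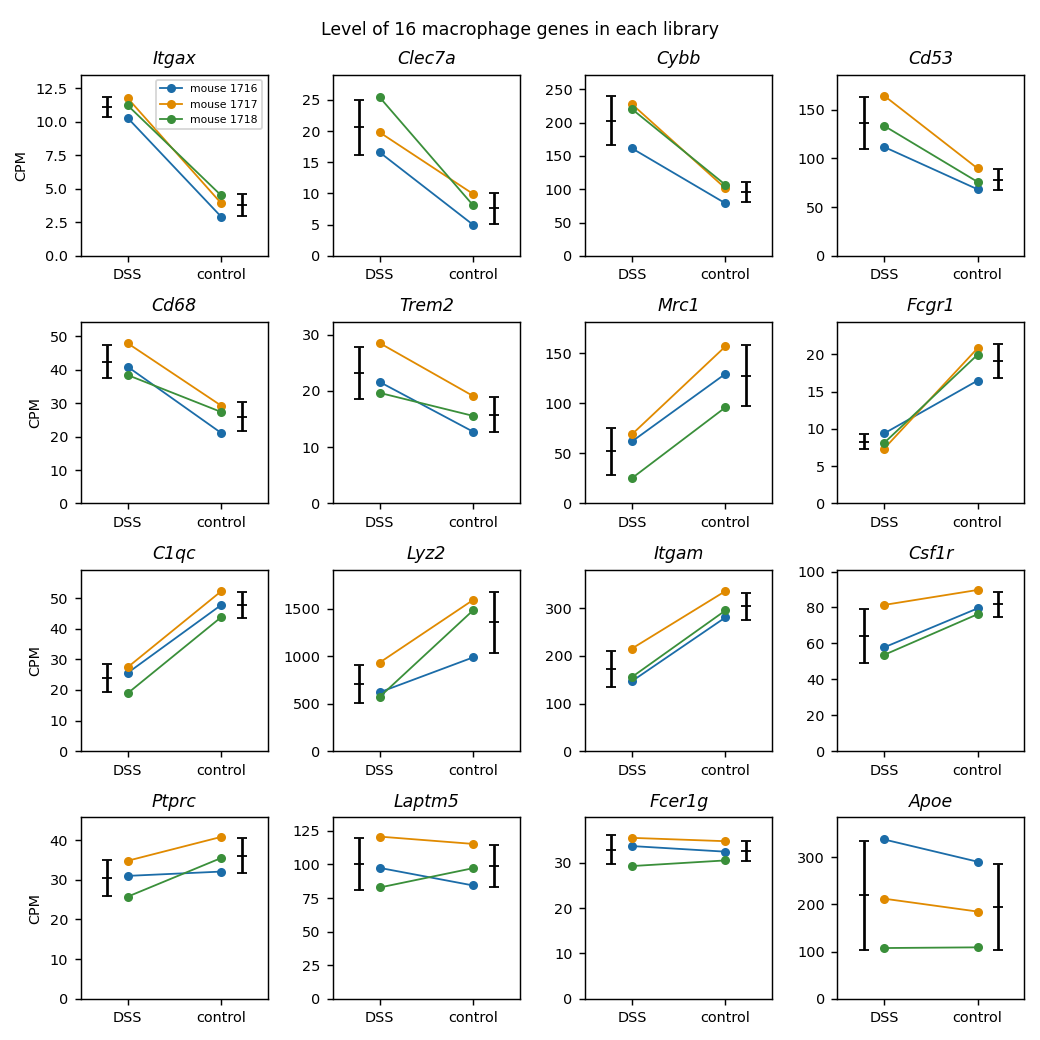
Level of 16 of the macrophage genes in CPM, each on its own linear axis from 0, with DSS to the left of control and a line for each mouse (black bars give the mean and SD of 3 libraries). The first 6 panels, Itgax to Trem2, have every DSS library above every control library, the panels from Mrc1 to Itgam have every DSS library below, and Csf1r, Ptprc, Laptm5, Fcer1g and Apoe overlap.

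Scavenger and lectin receptors take up sugars, lipids and debris, and here they split. Mrc1 (chr2:14229414-14332023), the mannose receptor often used as a sign of alternatively activated or resident macrophages, had 61.9, 68.98 and 25.2 CPM in DSS libraries, against 129, 157 and 95.9 CPM in control libraries. No DSS library reached the lowest control library, and mouse 1718 was the lowest in both media. The change of -1.37 ± 0.15 on the log2 scale (edgeR adjusted p = 0.000844) was the most negative of the 37 genes. Without the block the difference narrowly missed the threshold (edgeR adjusted p = 0.0531). Clec7a (chr6:129461591-129472785), known as Dectin-1, a receptor for fungal beta-glucan, had 16.6, 19.8 and 25.4 CPM in DSS libraries, against 4.96, 9.90 and 8.07 CPM in control libraries. Every DSS library was above every control library (log2 fold change 1.44 ± 0.15, edgeR adjusted p = 0.00063).

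Trem2 (chr17:48346401-48352276), a lipid receptor of macrophages and microglia, had 21.6, 28.5 and 19.7 CPM in DSS libraries, against 12.8, 19.1 and 15.6 CPM in control libraries. The lowest DSS value was just above the highest control value (log2 fold change 0.56 ± 0.09, edgeR adjusted p = 0.00501), and the call did not hold without the block (edgeR adjusted p = 0.0935). Msr1, the class A scavenger receptor for modified lipoproteins, had 113, 159.9 and 120.2 CPM in DSS libraries, against 133, 173 and 176 CPM in control libraries. DSS was lower within each mouse but the groups overlapped (log2 fold change -0.30 ± 0.09, edgeR adjusted p = 0.0436). Its call was lost without the block (edgeR adjusted p = 0.274), in DESeq2 (adjusted p = 0.0581) and without mouse 1718 (log2 fold change -0.18, edgeR adjusted p = 0.205). Cd163, which clears haemoglobin bound to haptoglobin, had 1.65, 1.08 and 0.966 CPM in DSS libraries, against 2.02, 1.53 and 1.37 CPM in control libraries. These low levels overlapped between the media (log2 fold change -0.42 ± 0.21, edgeR adjusted p = 0.203).

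The phagocyte oxidase makes superoxide inside engulfed compartments from a membrane core, formed by the products of Cybb and Cyba, and cytosolic subunits, among them those from Ncf1 and Ncf4. Cybb (chrX:9435252-9487766), the catalytic subunit, had 161, 228 and 220.4 CPM in DSS libraries, against 78.8, 101 and 107 CPM in control libraries. The lowest DSS library exceeded the highest control library by a wide margin (log2 fold change 1.08 ± 0.06, edgeR adjusted p = 5.91e-05). Ncf1 (chr5:134220053-134229628), the organiser of the cytosolic complex, had 12.3, 12.98 and 11.99 CPM in DSS libraries, against 16.1, 19.97 and 20.3 CPM in control libraries. Here every DSS library was below every control library (log2 fold change -0.59 ± 0.09, edgeR adjusted p = 0.00395). Ncf4 had 10.3, 12.6 and 11.5 CPM in DSS libraries, against 11.3, 14.99 and 12.6 CPM in control libraries. Its groups overlapped (log2 fold change -0.18 ± 0.09, edgeR adjusted p = 0.183).

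Cyba, the membrane partner of Cybb, is outside the panel and expressed by many cell types. It had 63.9, 72.2 and 65.8 CPM in DSS libraries, against 54.7, 59.9 and 58.6 CPM in control libraries. It was slightly higher in DSS (log2 fold change 0.22 ± 0.06, edgeR adjusted p = 0.0271), though not without the block (edgeR adjusted p = 0.095), in DESeq2 (adjusted p = 0.204), or without mouse 1717 or 1718 (edgeR adjusted p = 0.138 and 0.113). The ratio of Cybb to Ncf1 counts within a library was 13.1, 17.6 and 18.4 in DSS, against 4.88, 5.07 and 5.25 in control. Subunits of 1 enzyme thus changed unequally, with the catalytic chain higher and a regulatory chain lower in the same libraries.

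Itgam and Itgax are neighbouring genes with opposite changes. They encode the CD11b and CD11c chains, each of which pairs with the integrin chain Itgb2 to form an adhesion and complement receptor, and they sit 11034 bases apart on the same strand of chromosome 7. Itgam (chr7:128062640-128118491) had 147, 216 and 156 CPM in DSS libraries, against 281, 336 and 296 CPM in control libraries. Itgax (chr7:128129526-128150657) had 10.3, 11.8 and 11.3 CPM in DSS libraries, against 2.93, 3.94 and 4.52 CPM in control libraries. Neither gene's groups overlapped, but DSS was the lower group for Itgam and the higher group for Itgax. The changes were -0.83 ± 0.07 (edgeR adjusted p = 0.000366) for Itgam and 1.56 ± 0.13 (edgeR adjusted p = 0.000293) for Itgax. The ratio of Itgax to Itgam counts was 0.0701, 0.0547 and 0.0722 in DSS libraries, against 0.0104, 0.0117 and 0.0153 in control libraries. Within mice 1716, 1717 and 1718 the ratio was 6.72, 4.67 and 4.72 times as high in DSS as in control. Itgax is a gene of dendritic cells too, and the 8 dendritic cell markers summed to 21.0 to 22.7 CPM in DSS and 16.96 to 18.8 CPM in control libraries. Of these markers 4 passed the filter: Flt3, Zbtb46, Siglech and Xcr1, with log2 fold changes of 0.51, 0.28, 0.48 and 0.25. None of them passed the test. For Flt3, Zbtb46 and Siglech every DSS library was above every control library, as for 17.7% of all genes. Cd209a was at 0. The part of dendritic cells in the level of Itgax was not tested. Itgb2, the shared chain, had 164, 193 and 152 CPM in DSS libraries, against 96.4, 142 and 119.7 CPM in control libraries, and it was higher in DSS (log2 fold change 0.52 ± 0.09, edgeR adjusted p = 0.00456), though not without the block (edgeR adjusted p = 0.0645).

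The other surface proteins of the panel gave 1 call. Adgre1, the receptor detected by the F4/80 antibody, had 69.6, 128 and 93.4 CPM in DSS libraries, against 68.1, 83.8 and 88.3 CPM in control libraries. Mouse 1717 alone was clearly higher in DSS (log2 fold change 0.24 ± 0.11, edgeR adjusted p = 0.161), and without it the change was 0.06. Cx3cr1, the receptor for fractalkine, had 3.42, 2.78 and 1.93 CPM in DSS libraries, against 2.23, 1.64 and 1.49 CPM in control libraries. DSS was higher in each mouse, but the groups overlapped and the difference narrowly missed the threshold (log2 fold change 0.60 ± 0.18, edgeR adjusted p = 0.0505). It was farther from passing without the block (edgeR adjusted p = 0.187) and in DESeq2 (adjusted p = 0.381). Cd84, a self-binding receptor of the SLAM family, had 43.2, 40.02 and 31.8 CPM in DSS libraries, against 32.4, 41.7 and 32.4 CPM in control libraries, with overlapping groups (log2 fold change 0.11 ± 0.10, edgeR adjusted p = 0.476). Cd86, a costimulator of T cells, had 2.68, 2.89 and 1.76 CPM in DSS libraries, against 3.44, 5.75 and 5.49 CPM in control libraries. All DSS libraries were below all control libraries (log2 fold change -0.99 ± 0.23, edgeR adjusted p = 0.0204), but the call was lost without mouse 1718 (edgeR adjusted p = 0.091).

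Lysosomal and lipid-handling genes also divided. Cd68 (chr11:69664213-69666170), a glycoprotein of the lysosome membrane, had 40.96, 48.01 and 38.5 CPM in DSS libraries, against 21.2, 29.3 and 27.4 CPM in control libraries. Every DSS library was above every control library (log2 fold change 0.72 ± 0.09, edgeR adjusted p = 0.00155). Lyz2 (chr10:117277541-117282272), the lysozyme gene of myeloid cells, had 621, 935 and 573 CPM in DSS libraries, against 989, 1596 and 1487 CPM in control libraries. Every DSS library was below every control library (log2 fold change -0.94 ± 0.13, edgeR adjusted p = 0.00226). Lyz1, a near-identical neighbour, took 11.1 to 12.6% of the summed counts of both genes in each library. It was lower too (log2 fold change -1.03 ± 0.12, edgeR adjusted p = 0.00108). Reads may be shared between the 2 copies, so the value of Lyz1 need not be a separate observation.

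Lyz2 weighed heavily on the summed level of the panel. It made up 22.6 to 27.7% of the summed CPM in DSS libraries and 31.1 to 41.0% in control libraries, a share that depends on transcript length as well as abundance. Without Lyz2 the other 36 genes summed to 2126, 2441 and 1754 CPM in DSS libraries, against 2191, 2547 and 2138 CPM in control libraries. These sums overlapped between the media, but within each of the 3 mice the DSS sum was the lower one. Ctss, or cathepsin S, which trims the invariant chain during antigen presentation, had 149.7, 140.2 and 91.1 CPM in DSS libraries, against 120.3, 149 and 111 CPM in control libraries. It showed no difference beyond its error (log2 fold change -0.01 ± 0.11, edgeR adjusted p = 0.94).

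Apoe, the lipid carrier that macrophages share with glia and other cells, differed by mouse far more than by medium. It had 338, 212 and 108 CPM in DSS libraries, against 291, 185 and 109 CPM in control libraries. The mice kept the same order in both media, from 1716 down to 1718, and the change was 0.13 ± 0.07 on the log2 scale (edgeR adjusted p = 0.193). A list of 4 glial markers followed the same order of mice, with sums of 261, 138 and 59.3 CPM in DSS libraries and 323, 228 and 95.6 CPM in control libraries. All 4 of these markers were detected. The part of glial RNA in the level of Apoe was not tested.

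**Figure D3:**
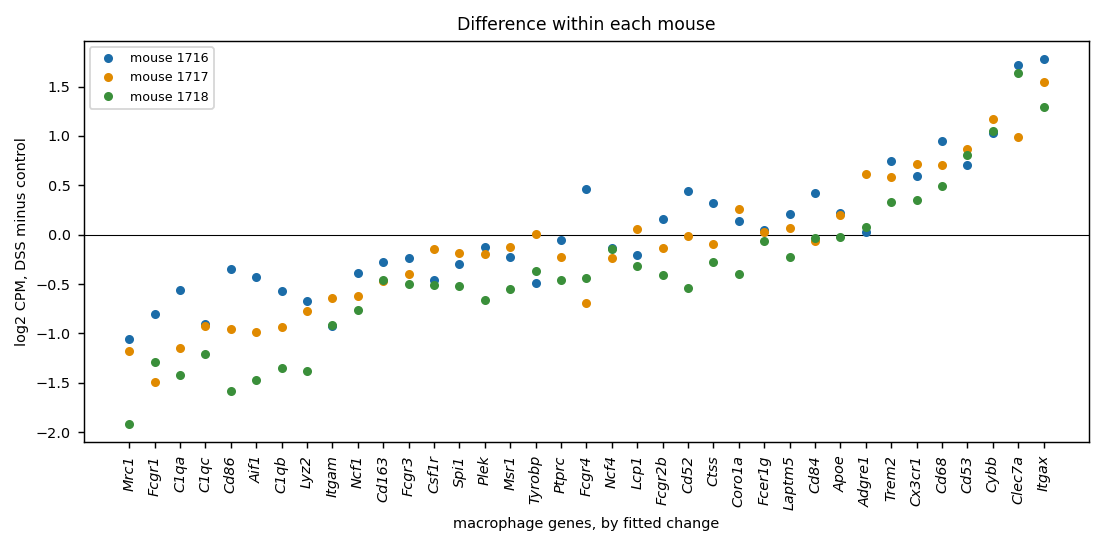
Difference in log2 CPM, DSS minus control, within each of the 3 mice for the 37 genes, ordered by fitted change from Mrc1 at -1.37 to Itgax at 1.56. Points above 0 are higher in the DSS library of that mouse, and mouse 1718 (green) is the lowest point for most genes on the left.

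The 3 mice gave much the same ranking of genes. Across the 37 genes the within-mouse differences of mice 1716 and 1717 correlated with r = 0.87, those of 1716 and 1718 with r = 0.90, and those of 1717 and 1718 with r = 0.94. Across all genes tested the same values were 0.62, 0.71 and 0.71, at a lower median level (10.8 CPM, against 35.9 CPM for the panel). Genes are not independent replicates, so these values are descriptions. The difference was higher in DSS in all 3 mice for 8 genes, lower in all 3 for 18, and mixed for 11. The share of all genes with 1 direction in all 3 mice was not counted. Between pairs of mice, 28 to 31 of the 37 genes had the same sign, against 13829 to 14421 of all 19869 genes tested. Mouse 1718 stood lower than the others: the median difference of the 37 genes was -0.12 in mouse 1716, -0.13 in mouse 1717 and -0.44 in mouse 1718. Over all genes it was near 0 in each mouse, which the scaling of the libraries largely sets. Even in mouse 1718 Itgax, Clec7a, Cybb, Cd53, Cd68 and Trem2 were higher in the DSS library.

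Ratios to Ptprc set each gene against a general leukocyte gene of the same library. Cybb counts were 5.21, 6.55 and 8.56 times those of Ptprc in DSS, against 2.46, 2.48 and 3.005 times in control. Mrc1 counts were 1.996, 1.982 and 0.980 times those of Ptprc in DSS, against 4.03, 3.84 and 2.70 times in control. The groups did not overlap for either ratio. Both genes are divided by the same Ptprc counts, so the scaling cannot alter how far Cybb and Mrc1 diverge within a library. These ratios restate the changes given above. Laptm5 counts were 3.14, 3.47 and 3.22 times those of Ptprc in DSS, against 2.63, 2.82 and 2.74 times in control, a much smaller difference. A ratio shows unequal change and does not say which gene of a pair changed.

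**Figure D4:**
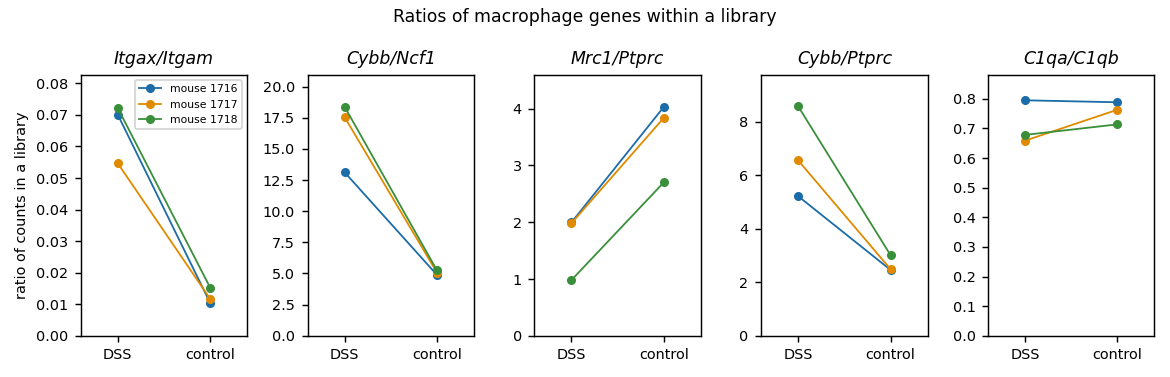
Ratio of the counts of a pair of macrophage genes within each library, with DSS to the left of control, a line for each mouse and a linear axis from 0. Itgax to Itgam, Cybb to Ncf1 and Cybb to Ptprc lie higher in all 3 DSS libraries, Mrc1 to Ptprc lies lower, and C1qa to C1qb overlaps.

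A wider list of 50 other macrophage and myeloid genes, several of which fibroblasts also express, was read beside the panel. Of 48 that passed the filter, 13 were higher, 8 were lower and 27 did not pass, with a median change of -0.03. Of all genes tested 12.3% were higher and 12.7% lower. Without the block 4 of the 48 were higher and 2 lower, against 7.37% and 5.91% of all genes. Lilrb4a, an inhibitory receptor with a close copy in the genome, had 114, 161 and 127 CPM in DSS libraries, against 35.9, 54.1 and 46.1 CPM in control libraries. Gpnmb, a glycoprotein of lipid-loaded macrophages, had 186, 116 and 119 CPM in DSS libraries, against 48.4, 46.3 and 44.6 CPM in control libraries. Mpeg1, which encodes the pore-forming protein perforin-2, had 318, 318 and 318 CPM in DSS libraries, against 171, 203 and 199 CPM in control libraries. These 3 genes were higher in every DSS library than in any control library, with changes of 1.56 ± 0.06 (edgeR adjusted p = 3.17e-05), 1.56 ± 0.12 (edgeR adjusted p = 0.000198) and 0.74 ± 0.07 (edgeR adjusted p = 0.000419).

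Of 14 genes linked to macrophage activation, 10 passed the filter, with 3 higher and 3 lower, against 12.3% and 12.7% of all genes. Cd80, a costimulator related to Cd86, had 15.7, 18.2 and 12.3 CPM in DSS libraries, against 26.3, 33.3 and 25.7 CPM in control libraries. Like Cd86 it was lower in DSS (log2 fold change -0.89 ± 0.08, edgeR adjusted p = 0.00044). Il1rn, the interleukin-1 receptor antagonist, had 38.7, 79.97 and 65.3 CPM in DSS libraries, against 24.2, 41.2 and 41.9 CPM in control libraries, and was higher within every mouse (log2 fold change 0.76 ± 0.08, edgeR adjusted p = 0.000596), though not without the block (edgeR adjusted p = 0.129). Mmp12, the macrophage elastase, had 192, 428 and 499.5 CPM in DSS libraries, against 109, 136 and 217 CPM in control libraries, and the same was true of it (log2 fold change 1.23 ± 0.14, edgeR adjusted p = 0.000998; edgeR adjusted p = 0.0668 without the block). Acp5, an acid phosphatase of osteoclasts and some macrophages, had 34.2, 34.8 and 22.8 CPM in DSS libraries, against 55.00, 49.3 and 39.6 CPM in control libraries, and was lower (log2 fold change -0.66 ± 0.07, edgeR adjusted p = 0.00083; edgeR adjusted p = 0.0582 without the block).

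A list of 11 ligands and partners was read too. It also holds genes that are no ligand of a panel receptor, among them Csf2 and the proteases C1ra and C1s1. Of the 11 genes, 6 were higher in DSS, 1 was lower and 4 did not pass, with a median change of 0.95. Of all genes tested 12.3% were higher and 12.7% lower. Csf1, the main ligand of Csf1r, had 904, 1072 and 999 CPM in DSS libraries, against 469, 630.0 and 458 CPM in control libraries. Every DSS library was above every control library (log2 fold change 0.95 ± 0.08, edgeR adjusted p = 0.000297), so the ligand was higher while the receptor transcript was slightly lower. The ratio of Csf1 to Csf1r counts was 15.7, 13.2 and 18.6 in DSS, against 5.89, 7.02 and 6.01 in control. Il34, the other ligand of Csf1r, had 11.7, 5.33 and 4.55 CPM in DSS libraries, against 5.72, 5.03 and 4.06 CPM in control libraries, and did not pass (log2 fold change 0.49 ± 0.20, edgeR adjusted p = 0.125). Csf2, a growth factor of granulocytes and macrophages, had 6.15, 10.2 and 6.14 CPM in DSS libraries, against 0.708, 1.42 and 1.09 CPM in control libraries. Its change of 2.80 ± 0.17 on the log2 scale (edgeR adjusted p = 0.000104) rests on low levels in control.

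The ligand of Cx3cr1 and a ligand of the Itgam and Itgax integrins were also higher. Cx3cl1, or fractalkine, had 53.6, 48.8 and 39.8 CPM in DSS libraries, against 15.03, 19.8 and 11.96 CPM in control libraries, a change of 1.62 ± 0.11 on the log2 scale (edgeR adjusted p = 0.000123), while its receptor Cx3cr1 did not pass. Icam1, the adhesion molecule, had 132, 68.1 and 114 CPM in DSS libraries, against 42.2, 29.6 and 28.3 CPM in control libraries, a change of 1.62 ± 0.14 on the log2 scale (edgeR adjusted p = 0.000293). Which cells made these ligands cannot be read from whole-culture RNA.

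**Figure D5:**
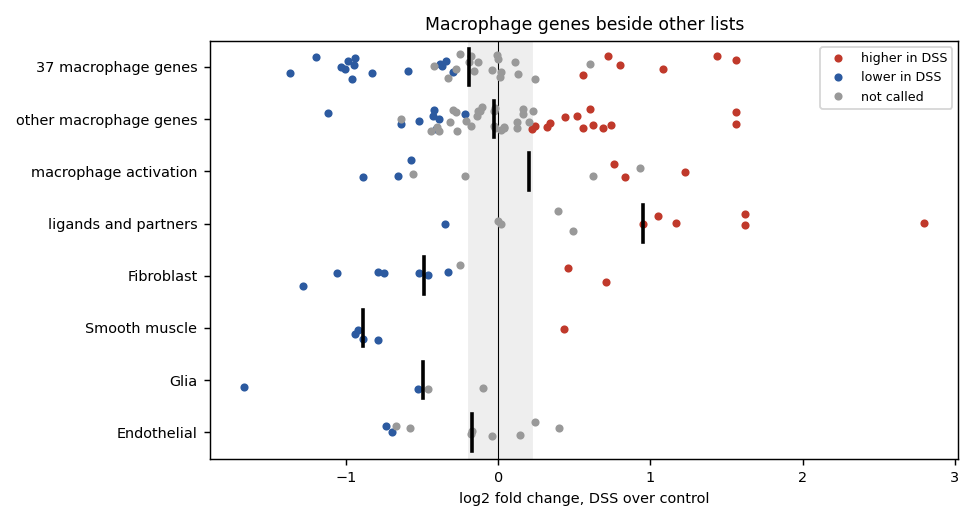
Log2 fold change, DSS over control, of each tested gene in the 37-gene panel and in 7 other lists (points, red higher, blue lower, grey not called; black bars are medians). The shaded band is the interquartile range of all genes tested, and the panel's points run from -1.37 to 1.56 around a median of -0.19, while the ligands and partners have a median of 0.95.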

How the data were processed

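RNA of 6 mouse colonic fibroblast cultures was depleted of ribosomal RNA and made into strand-specific libraries for Illumina sequencing, as the labels' protocols describe. The authors deposited unscaled estimated counts for 120299 RefSeq transcripts, made with kallisto on GRCm38 (mm10), per the submitters' processing notes. Its version and settings are not named in the sources. Kallisto divides reads among similar transcripts by likelihood, so close gene copies are uncertain.

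Here, estimated counts were summed per symbol over all transcripts, rounded and filtered with filterByExpr of edgeR at a minimum count of 10 and a total of 15. After TMM scaling the media were compared with edgeR's quasi-likelihood test with the mouse as a block, with Benjamini-Hochberg adjustment over 19869 genes at a threshold of 0.05. The SE is the log2 fold change divided by the square root of F. CPM uses the TMM factors, and log2 CPM a prior count of 2. Libraries held 17293680 to 19482938 estimated counts, which limits precision most for genes such as Cd163, Aif1, Cd86 and Cx3cr1. The same mice gave both groups, and deviations from the group means correlated within mice (r = 0.35, 0.21 and 0.46 across genes for mice 1716, 1717 and 1718). Between mice the correlations ranged from -0.36 to 0.02. Deviations from a group mean cancel out within the group, so the low values between mice are partly built in. Nothing in the labels says whether more than 1 culture per mouse and medium was grown. With the mouse as a block, the p-values rest on how the difference between media varied over these 3 mice. That variation also holds any spread between cultures and libraries.

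Alternatives were no block, DESeq2, limma-voom, RLE factors, plain library totals, no filter, and each mouse left out. The fits were tested on simulated data with known changes, where the blocked fit called more unchanged genes than its threshold allows. The 37 genes and all lists were chosen with earlier results of these data known. All 37 genes are named, with the 4 smallest p-values of the other macrophage lists and the direct partners of panel genes, except for items that are not reported here. Plac8, Cd22 and Lyz1, and the names of other marker genes detected, were added after their values were seen, and marker genes at 0 are named as such. Fits used edgeR 4.0.16, DESeq2 1.42.0 and limma 3.58.1 in R 4.3.3. Tables and plots used matplotlib 3.10.9, numpy 2.4.6 and pandas 2.3.3 in Python 3.11.15. Promoters and coordinates are from RefSeq, GRCm38.p6.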

Additional observations from a re-analysis of the deposited data

How the results depend on the processing

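The 6 genes called higher (Itgax, Clec7a, Cybb, Cd53, Cd68 and Trem2) and 9 of the 14 called lower (Mrc1, Fcgr1, C1qa, C1qb, C1qc, Lyz2, Itgam, Ncf1 and Fcgr3) passed in DESeq2, in limma-voom, with RLE factors, with plain totals, without the filter and without each mouse in turn. The fit without the replicate block was the exception, where 9 panel genes were lower, 4 other macrophage genes were higher and 2 lower, and over all genes 1465 were higher and 1174 lower, against 2447 and 2517 with the block. DESeq2 with the block called 1470 and 1569 of all genes, and 5 other macrophage genes lower. Leaving out each mouse gave 9 to 17 panel genes lower, 3 to 8 other macrophage genes lower, and 1357 to 2304 genes higher and 1422 to 2375 lower over all genes. The panel's median change ran from -0.27 to -0.15 in these fits. The lowest counts came without mouse 1718. Signs turned for 8 uncalled genes. Ctss was at 0.00 without the block and Coro1a at 0.01 with plain totals. Over the fits without a mouse, Ctss ran from -0.18 to 0.10, Coro1a from -0.15 to 0.20, Cd52 from -0.27 to 0.20, Fcgr2b from -0.27 to 0.00, Fcgr4 from -0.58 to 0.06, Laptm5 from -0.08 to 0.13, Fcer1g from -0.01 to 0.03 and Cd84 from -0.05 to 0.20. Cx3cr1 passed with plain totals (edgeR adjusted p = 0.0459) and without the filter (edgeR adjusted p = 0.0493), and Spi1 did not (edgeR adjusted p = 0.05003 and 0.0512). Cx3cr1 did not pass without the block (edgeR adjusted p = 0.187) or in DESeq2 (adjusted p = 0.381). Nor did it pass without mouse 1716, 1717 or 1718 (edgeR adjusted p = 0.158, 0.184 and 0.11). The cause of these shifts was not tested. Fits without a mouse rest on fewer libraries.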
